A study of Homo sapiens with 12 samples.

Results

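The replication-dependent histone genes encode the linker histone H1 and the core histones H2A, H2B, H3 and H4 in many near-identical copies. They were taken as all genes whose names in the deposited table begin with HIST1H, HIST2H, HIST3H or HIST4H, without the 11 whose names contain PS, which left 76 of 58302 genes. These were 6 H1, 17 H2A, 22 H2B, 16 H3 and 15 H4 genes. One name, HIST1H3D, stands on 2 gene identifiers, and both were kept.

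RNA-seq libraries came from TPC1, a cell line derived from a papillary thyroid carcinoma and wild type for Dicer1, and from 3 Dicer1 (+/−) cell lines, D11, WB1 and TD5, with 3 libraries per line. The Dicer1 (+/−) lines were made from TPC1 by transient transfection of a CRISPR-Cas9 plasmid with a guide against an exon of Dicer1, the ribonuclease that cuts miRNA precursors. Each of them was grown from 1 sorted cell and keeps 1 wild-type allele, so a difference between a clone and TPC1 cannot be told apart from a difference between single cells of the parental line. All lines were grown in RPMI medium with fetal bovine serum, without a further treatment. The labels do not say whether the libraries of a line came from separate cultures, and the study's general statement on independent repeats does not name them, so p-values measure the spread between these libraries, which may be technical.

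The copies of these genes lie mostly in a large cluster on chromosome 6, and they are transcribed when DNA is replicated, so that new chromatin can be packed. Their mRNAs differ from almost all others at the 3′ end: instead of a poly(A) tail they carry a short stem-loop, which the stem-loop binding protein SLBP holds and which the U7 snRNP and the CPSF endonuclease cut free. When the cut at the stem-loop is missed, or in cells that have left the cycle, some of these genes are instead cleaved further downstream and polyadenylated. The libraries here were made with a stranded mRNA kit that selects poly(A) RNA, so the values below are meant to count polyadenylated RNA. They say little about the stem-loop mRNA, and values per gene cannot tell how much of it was carried along.

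Of the 76 genes, 70 were found by identifier in the GENCODE release 44 annotation of GRCh38, the build used by the authors. They comprised 54 genes on chromosome 6 between 25723397 and 27893891, 15 on chromosome 1 and 1 on chromosome 12. As protein coding were listed 67, and 3 as pseudogenes. In 66 of the 67 coding genes, a stem of 6 base pairs with a loop of 4 bases was found 22 to 62 bases after the stop codon. The following are shown because HIST1H1C and HIST1H2BH were the genes called different from TPC1, and HIST1H2BK and HIST1H4I were, with HIST1H1C, the highest per length. Capitals mark the stem-loop, and 5 flanking bases are in lower case, read from GRCh38 in the direction of the gene.

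HIST1H1C, chr6:26055739-26055764, minus strand: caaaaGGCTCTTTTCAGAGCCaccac
HIST1H2BH, chr6:26252050-26252075, plus strand: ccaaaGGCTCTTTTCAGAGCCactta
HIST1H2BK, chr6:27146361-27146386, minus strand: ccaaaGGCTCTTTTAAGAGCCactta
HIST1H4I, chr6:27139649-27139674, plus strand: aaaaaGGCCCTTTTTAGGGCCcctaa

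HIST1H1C and HIST1H2BH carried the same 16 bases, and 36 genes in all shared them. A further 10 genes had the form of HIST1H2BK and 4 that of HIST1H4I, while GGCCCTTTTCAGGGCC was found in 10 genes, all of them H4. The hexamer AATAAA, the usual signal for polyadenylation, first followed the stop codon at 55 bases in HIST1H1C and at 64 bases in HIST1H2BD. In the other 13 genes tested below it first occurred at 364 to 2670 bases. Across all members 5 had it within 200 bases. Transcripts that run more than 50 bases past the stem-loop were annotated for 9 of the 15 tested genes and for 9 of the 52 coding genes that were not tested. HIST1H1C, HIST1H2BH, HIST1H2BK and HIST1H4I had none.

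The values are reads per gene that the authors scaled to 20000000 reads per library and rounded up, here called scaled reads. From the steps between these values, 12700000 to 21020000 reads per library were estimated, so that 3 reads correspond to 2.85 to 4.72 scaled reads. This floor covers counting error only. Replication-dependent histone genes together took 1202 to 1891 scaled reads, which is 0.00601 to 0.00945% of a library. DICER1 itself, the targeted gene, had 1360, 1129 and 1101 scaled reads in TPC1, 977, 1051 and 1093 (D11), 881, 939 and 815 (WB1) and 643, 627 and 809 (TD5). By limma its log2 fold change against TPC1 was −0.19 in D11 (adjusted p = 0.138) and −0.43 in WB1 (adjusted p = 0.00404). TD5 had −0.77 (adjusted p = 9.02e-05) and was the only clone in which DICER1 was called lower. Over the alternatives D11 ranged from −0.42 to −0.10, with adjusted p-values by limma from 0.000159 to 0.471. These values are RNA. By Western blot the study found significantly less Dicer1 protein in the Dicer1 (+/−) lines than in TPC1. Of the thyroid markers PAX8 (7248 to 9879 scaled reads), TG (11 to 27) and FOXE1 were present, while TSHR, SLC5A5 and NKX2-1 were listed at 0 in every library. FOXE1 had 316, 286 and 280 scaled reads in TPC1 and 93 to 171 in the clones, and was called lower in D11 (log2 fold change −0.95), WB1 (−1.06) and TD5 (−1.20), as HIST1H1C was below. Of the epithelial markers KRT8 and KRT18 were abundant and lower in each clone at an adjusted p under 0.05 by limma, with changes from −0.47 to −0.23, and EPCAM, CDH1 and KRT19 had at most 6 scaled reads. Of 11 markers of other cell types 3 were at 0 and 6, these included, at or under the floor in every library. Their summed level was 1213 to 1352 in TPC1, 1142 to 1338 in D11, 1400 to 1612 in WB1 and 1414 to 1548 in TD5, and most of it came from CD68. PDGFRB, another of these markers, had 192, 112 and 177 scaled reads in TPC1 and 37, 56 and 48 in WB1, where it was called lower (−1.41, adjusted p = 2.21e-05 by limma). In D11 PDGFRB was lower too, by −0.46 and less than 1.5-fold, and in TD5 it had −0.06. The part of these markers in the results below was not tested.

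Most of the family was barely detected. No read was listed in any library for 14 genes, and 29 genes, these included, were at or under the floor in all 12 libraries. A gene was tested when it had at least 1 per 1000000 in at least 3 libraries, and 15 members passed: 1 H1, 2 H2A, 8 H2B, 2 H3 and 2 H4 genes. They differ in what can be counted: in the tested genes, at least 97.4% of 100-base windows were unique among the members, but 12 of the 70 annotated members had under 50% unique windows, and 2 H3 or H4 genes had none. Some of these share windows because they overlap on the same strand in the annotation, such as HIST1H3J and HIST1H2AM. Reads that fit several copies or several overlapping genes equally well are usually left out by counting per gene. A low value of these genes thus need not be a low expression. The highest of the 61 genes under the filter were HIST1H3D (ENSG00000282988) with a mean of 13.2 scaled reads over the 12 libraries, HIST1H3G with 13.1 and HIST1H2BE with 9.67. Together, the genes under the filter had 125 to 145 scaled reads in TPC1, 119 to 164 in D11, 159 to 166 in WB1 and 134 to 145 in TD5. As means this was 107%, 122% and 104% of TPC1, and only in WB1 did all 3 libraries lie over those of TPC1.

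**Figure D1:**
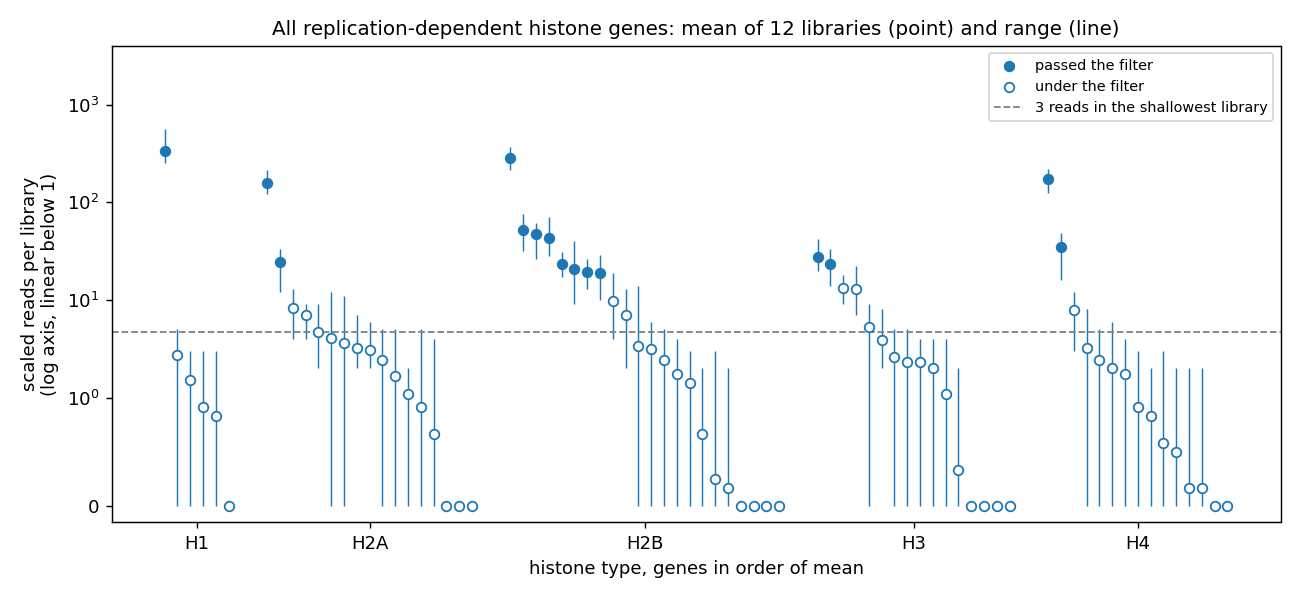
Mean level of each of the 76 genes over the 12 libraries in scaled reads (points) with the lowest and highest library (lines), ordered within each histone type on a log axis that is linear below 1. Filled points are the 15 genes that were tested, open points those under the filter, and the dashed line is 3 reads in the shallowest library, at 4.72 scaled reads.

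One gene dominated each of the types H1, H2A, H2B and H4. HIST1H1C, which encodes a somatic linker histone that binds DNA between nucleosomes, held all but 2 to 10 of the scaled reads of H1. Over the 12 libraries H2B genes took 37.5% of the histone reads, H1 24.1%, H4 16.0%, H2A 15.7% and H3 6.78%. Compared per length, as values per 1000000 and per kb of annotated exonic sequence, HIST1H2BK (28.5 ± 4.39, SD over the 12 libraries), HIST1H1C (23.1 ± 7.26) and HIST1H4I (21.8 ± 3.01) stood at the top, and their ranges overlapped. This order pools lines that differ: in TPC1 alone HIST1H1C had 34.2 ± 5.92 and HIST1H2BK 33.4 ± 3.18 (SD, n = 3). HIST1H2AC followed with 4.77 ± 0.877, under every library of these 3. The other 11 tested genes had means from 2.52 (HIST1H2BD) to 0.270 (HIST1H2BN), and neighbours in this order overlapped except HIST1H3E and HIST1H2BN. For genes with long annotated transcripts, such as HIST1H2BN and HIST1H2BC, this level depends on the annotation, because their exonic length holds the downstream exons.

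HIST1H1C was the only replication-dependent histone gene called lower in all 3 clones. HIST1H1C (ENSG00000187837, chromosome 6, 26055740 to 26056470, minus strand, 1 exon) had 567, 402 and 530 scaled reads in TPC1. The clones had 312, 322 and 276 (D11), 260, 292 and 258 (WB1) and 315, 279 and 252 (TD5). Every clone library was below every TPC1 library, and the clones overlapped each other. TPC1 averaged 499.7 ± 86.6, D11 303.3 ± 24.2, WB1 270.0 ± 19.1 and TD5 282.0 ± 31.6 (SD, n = 3 per line). The log2 fold change against TPC1 was −0.67 in D11 (SE 0.12, adjusted p = 0.000684 by limma with Benjamini-Hochberg adjustment over the 16027 genes tested). WB1 had −0.83 (adjusted p = 0.000119), and TD5 had −0.77 (adjusted p = 0.000433). A gene was called when this p was under 0.05 and the change was at least 1.5-fold. HIST1H1C was thus called lower in each clone. On the log2 scale of the fit these changes correspond to 62.7% (D11), 56.3% (WB1) and 58.5% (TD5) of TPC1. Because a constant was added before taking logs, these percentages somewhat understate the fall in mean scaled reads.

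Among all genes tested, 0.374% were called lower in all 3 clones, and 1 of the 15 histone genes was. These 3 comparisons share the TPC1 libraries. In D11 the change of HIST1H1C lay near the limit of 1.5-fold: without TPC1 replicate 1, or after correction of the libraries for GC content, it was −0.58, still with an adjusted p of 0.00446 and 0.00121 by limma, and was no longer called. In WB1 and TD5 it was called in each alternative. The 5 other H1 genes, HIST1H1A, HIST1H1B, HIST1H1D, HIST1H1E and HIST1H1T, had at most 5 scaled reads in any library, so that changes in them were not detectable at this depth.

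HIST1H2BH was the only member called higher than TPC1. HIST1H2BH (ENSG00000275713, chromosome 6, 26251614 to 26252075, plus strand, 1 exon), one of the H2B copies, had 14, 9 and 11 scaled reads in TPC1, 40, 27 and 22 (D11), 20, 26 and 22 (WB1) and 18, 17 and 21 (TD5). Every clone library was above every TPC1 library. The reads behind these values were estimated at 14, 7 and 7 in TPC1 and at 11 to 29 in the clones, so the gene was measured on few reads. The log2 fold change, on log2(value per 1000000 + 1), which understates the change of low genes, was 0.65 in D11 (SE 0.14, adjusted p = 0.00312) and 0.45 in WB1 (adjusted p = 0.0255), while TD5 had 0.30 (adjusted p = 0.177). It was called in D11 only, and the difference between TD5 and D11 was −0.35 (adjusted p = 0.0874 by limma). The call in D11 was lost with a pseudocount of 4 (0.26) and without D11 replicate 1 (0.51). In the GENCODE annotation HIST1H2BH lies within the span of longer genes on the same strand, as do 3 further tested genes (HIST1H2AC, HIST1H2BD and HIST1H3E), while HIST1H1T lies within the span of HIST1H2BC. How reads were divided between them was not tested. The authors counted on Ensembl release 90, in which these spans were not looked up.

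**Figure D2:**
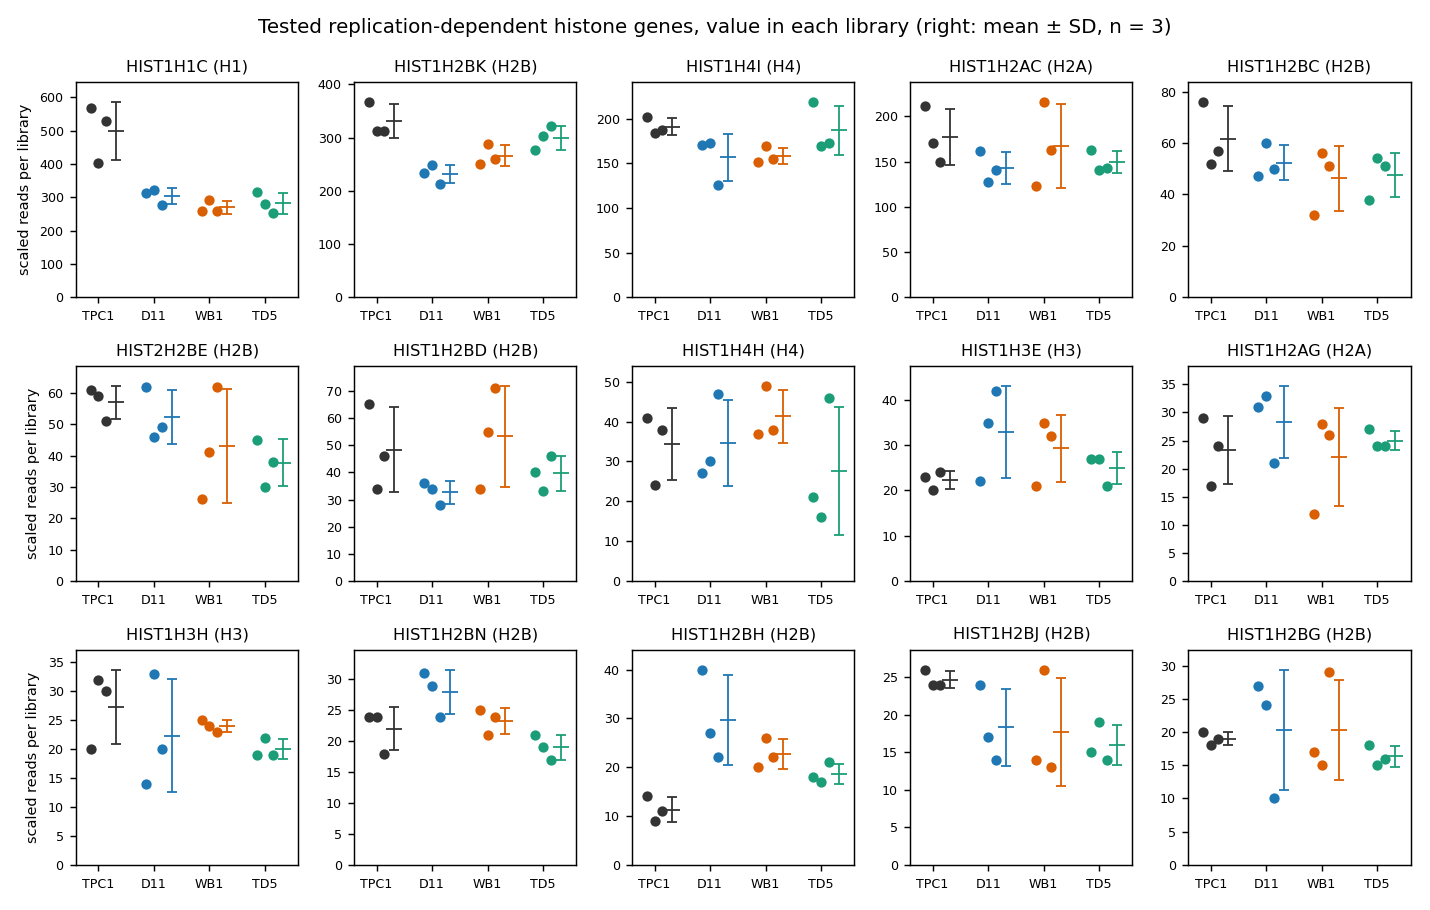
Scaled reads of the 15 tested histone genes in each library (points), with the mean ± SD of each line (n = 3) at the right of the points. HIST1H1C is the gene in which all 9 clone libraries lie under the 3 TPC1 libraries, at 252 to 322 against 402 to 567, and HIST1H2BH the one in which all 9 lie above, at 17 to 40 against 9 to 14.

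In the rest of the H2B genes, HIST1H2BK stood out. HIST1H2BK (ENSG00000197903, chromosome 6, 27146361 to 27146855, minus strand) had 367, 313 and 312 scaled reads in TPC1, 234, 248 and 213 (D11), 251, 288 and 259 (WB1) and 276, 302 and 321 (TD5). All libraries of D11 and WB1 were below those of TPC1, and TD5 overlapped with it. How many of all genes had the libraries of a single clone all under TPC1 was not counted, here and below. D11 had a log2 fold change of −0.48 (SE 0.10, limma adjusted p = 0.00215) and WB1 one of −0.29 (adjusted p = 0.0324), both less than 1.5-fold, while TD5 had −0.13 (adjusted p = 0.42). Between TD5 and D11 the difference was 0.35 (adjusted p = 0.0182), so that the level in TD5 was higher than that in D11. In WB1 the p against TPC1 passed 0.05 in 5 alternatives: it was 0.124 with the GC correction, 0.128 without TPC1 replicate 1, 0.109 and 0.0753 without WB1 replicates 1 and 3, and 0.0573 with no filter on low values. The p of TD5 against D11 was 0.0897 without D11 replicate 3 and 0.0501 without TD5 replicate 2.

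HIST1H2BC had 76, 52 and 57 scaled reads in TPC1 and 32 to 60 in the clones. HIST2H2BE, the tested gene on chromosome 1, had 61, 59 and 51 in TPC1, 62, 46 and 49 (D11), 26, 41 and 62 (WB1) and 45, 30 and 38 (TD5). Its libraries in TD5 were all under those of TPC1, with a log2 fold change of −0.42 and an adjusted p of 0.125. The remaining H2B genes, HIST1H2BD, HIST1H2BJ, HIST1H2BN and HIST1H2BG, are named after their values were seen, to account for every gene tested. Their log2 fold changes ranged from −0.35 (HIST1H2BD in D11) to 0.19 (HIST1H2BN in D11) and had adjusted p-values of at least 0.145. HIST1H2BJ had 26, 24 and 24 scaled reads in TPC1, and in TD5 15, 19 and 14, all of them lower.

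Both tested H4 genes and both tested H2A genes had no change past the threshold. HIST1H4I, a gene for the core histone H4, had 202, 184 and 188 scaled reads in TPC1, 171, 173 and 126 (D11), 152, 169 and 155 (WB1) and 219, 170 and 173 (TD5). The libraries of D11 and WB1 were under those of TPC1, a separation whose share among all genes was not counted. The log2 fold changes of −0.27 (adjusted p = 0.0974 by limma) and −0.24 (adjusted p = 0.138) did not pass, and TD5 had −0.03. HIST1H4H ranged from 16 to 49 scaled reads with the largest spread within a line in TD5, at 21, 16 and 46. HIST1H2AC had 211, 170 and 150 in TPC1, 162, 127 and 141 (D11), 123, 216 and 163 (WB1) and 163, 141 and 143 (TD5), and every clone overlapped with TPC1. HIST1H2AG lay at 17 to 29 in TPC1 and at 12 to 33 in the clones.

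Of the H3 genes HIST1H3E had 23, 20 and 24 scaled reads in TPC1 and 22, 35 and 42 (D11), 21, 35 and 32 (WB1) and 27, 27 and 21 (TD5). Its log2 fold change of 0.31 in D11 had an adjusted p of 0.133. HIST1H3H had 20, 32 and 30 in TPC1 and between 14 and 33 in the clones. At 14 to 42 scaled reads per library, these genes show only large differences.

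**Figure D3:**
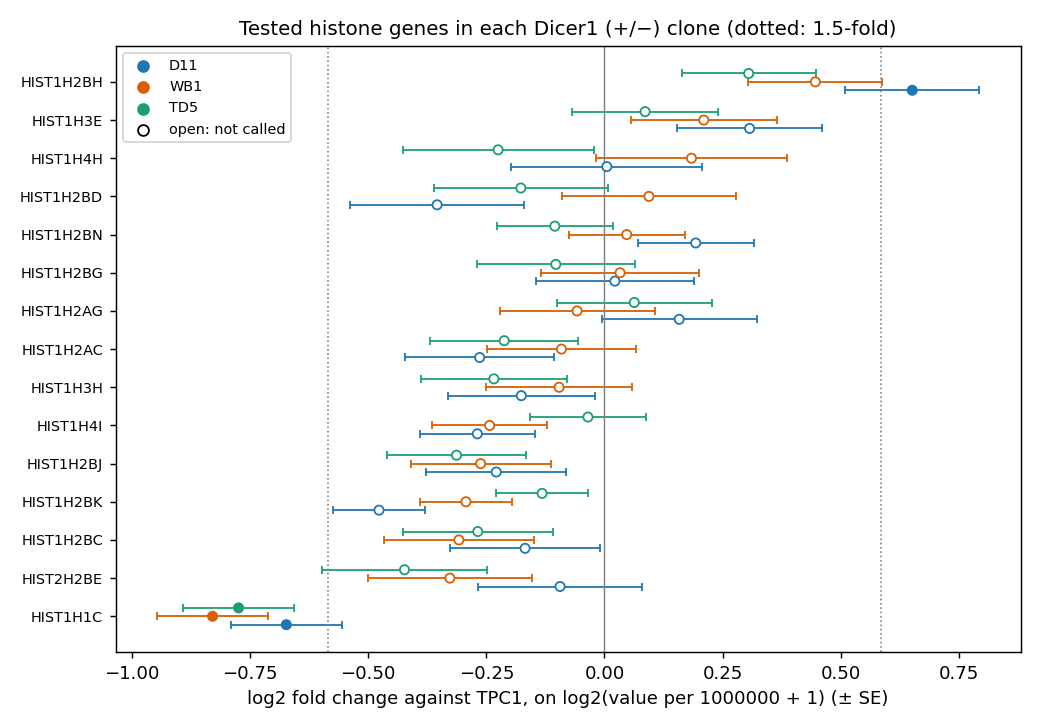
Log2 fold change of the 15 tested histone genes in D11, WB1 and TD5 against TPC1, with the standard error (bars), on log2(value per 1000000 + 1). Filled points were called and open points were not, and the dotted lines mark 1.5-fold. HIST1H1C lies at −0.67, −0.83 and −0.77, and HIST1H2BH in D11 at 0.65 is the other filled point.

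Over the whole set, 1 of 15 histone genes was called lower and 1 higher in D11, where 1.95% of all genes tested were called lower and 2.89% higher. In WB1, 1 was called lower and 0 higher, against 1.59% and 3.39% of all genes. In TD5 it was again 1 and 0, against 1.48% and 1.12%. By voom on the estimated reads, 1 gene, HIST1H2BH, was called higher in WB1 and 0 in TD5. At an unadjusted p under 0.05 in either direction, 4, 3 and 4 histone genes passed in D11, WB1 and TD5 by limma, against 44.6%, 42.7% and 27.1% of all genes. At an adjusted p under 0.05 with any fold, 3 histone genes passed in D11 (33.3% of all genes), 3 in WB1 (30.9%) and 1 in TD5 (11.9%). The median log2 fold change of the 15 genes was −0.17 in D11, −0.09 in WB1 and −0.18 in TD5, where that of all genes was 0.05, 0.06 and 0.00. Below 0 were 9, 9 and 12 of the 15. In 1 gene every clone library was under every TPC1 library, against 6.67% of all genes, and in 1 every clone library was over them, against 5.2%. Such shares were not counted for single clones. Apart from HIST1H1C, HIST1H2BK, HIST1H4I and HIST1H2AC, the tested genes averaged at most 52.0 scaled reads over all libraries. At such levels the fit understates changes: HIST1H2BH averaged 22.67 scaled reads in WB1 against 11.33 in TPC1 and was not called by limma. The shares of all genes were not taken at matched levels, here and between the clones. How far the calls and medians of the histone genes reflect their low levels was not tested.

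Between the clones, no histone gene was called by limma or voom. In TD5 against D11, 3.99% of all genes were called, in WB1 against D11 2.85% and in TD5 against WB1 2.33%. At an unadjusted p under 0.05 there were 3, 1 and 0 histone genes in these comparisons by limma, against 36.9%, 19.3% and 30.4% of all genes. HIST1H2BK in TD5 against D11 was the only one with an adjusted p under 0.05, where 23.2% of all genes had one.

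Added up by type, the H1 sum moved most, which HIST1H1C fixes. H1 genes had 569, 405 and 536 scaled reads in TPC1, and the mean of D11, WB1 and TD5 was 62.1%, 54.8% and 57.2% of it. H2B genes had 674, 552 and 559 in TPC1, 530, 534 and 437 (D11), 448, 565 and 581 (WB1) and 496, 518 and 546 (TD5), which gave 84.1%, 89.3% and 87.4%. For the H2A genes it was 87.6%, 97.4% and 90.7%, and for the H3 genes 94.9%, 107% and 92.5%. For the H4 genes TPC1 averaged 246.3 ± 18.0 scaled reads, D11 212.7 ± 27.2, WB1 221.7 ± 16.3 and TD5 233.0 ± 26.5 (SD, n = 3). Apart from H1, the libraries of a clone all lay under those of TPC1 for H2B in D11 and TD5 and for H3 in TD5, and overlapped with TPC1 otherwise. These sums are a description and were not tested.

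All 76 genes together had 1891, 1507 and 1648 scaled reads in TPC1, 1380, 1402 and 1202 (D11), 1209, 1500 and 1392 (WB1) and 1396, 1302 and 1347 (TD5). Every clone library was under the lowest TPC1 library, with WB1 replicate 2, at 1500, the closest. TPC1 averaged 1682 ± 194, D11 1328 ± 110, WB1 1367 ± 147 and TD5 1348 ± 47.0 (SD, n = 3 per line), or 79.0%, 81.3% and 80.2% of TPC1. Without HIST1H1C the sum of the other 75 genes was 1324, 1105 and 1118 in TPC1, and the clones were at 86.7%, 92.8% and 90.2%. All libraries of D11 and TD5 were then still under TPC1, while WB1 overlapped with it. In bulk samples, fewer cells that express these genes and less RNA per cell cannot be told apart.

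**Figure D4:**
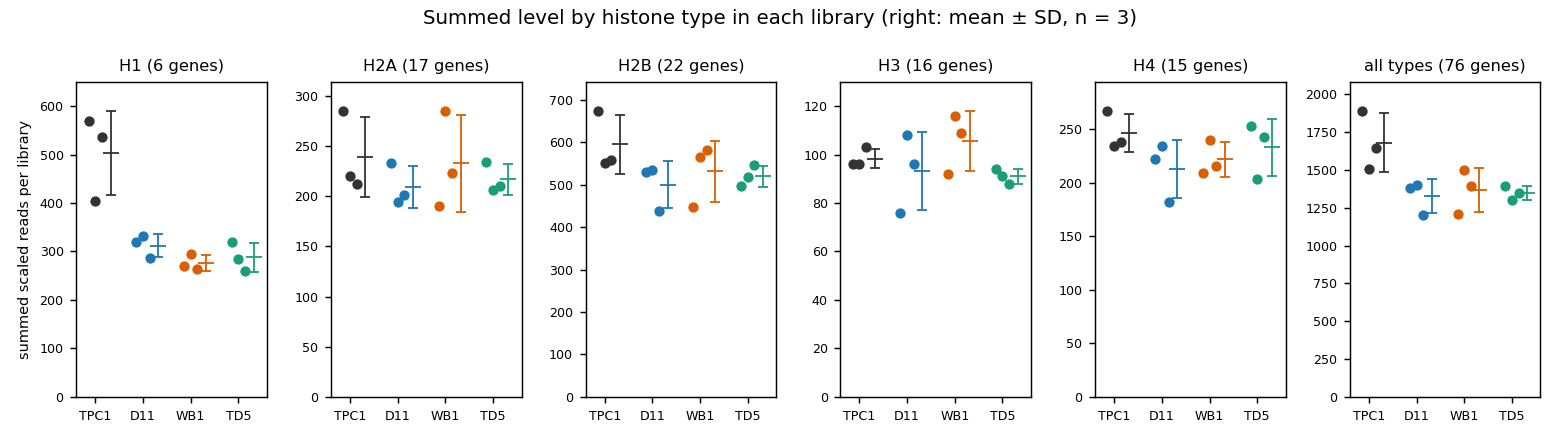
Summed scaled reads of the H1, H2A, H2B, H3 and H4 genes and of all 76 genes in each library (points), with the mean ± SD of each line (n = 3) at the right. The H1 panel shows the clones at 260 to 332 under TPC1 at 405 to 569, and the total lies at 1202 to 1500 in the clones against 1507 to 1891 in TPC1.

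The sequences before the start sites shared some motifs across the types of histone genes and differed in others. In the RefSeq promoters of GRCh38.p14, 60 members were matched by symbol, and the 250 bases before the start were searched on both strands. The octamer ATTTGCAT, the motif of the POU factor OCT1, was present in 35.0% of the matched genes and in 1.63% of all 35116 promoters of this length. It was found in 69.2% of the H2B and 68.8% of the H2A promoters, in 8.33% of H3 and in 0.00% of the H1 and H4 promoters. The match in H3 was that of HIST1H3D, for which RefSeq gives the same stretch as for HIST1H2AD, so it was counted under both types. The box CCAAT, bound by NF-Y, was in 83.3% of the histone promoters against 11240 of all 35116, but in only 23.1% of those of H4. The letters TATAAA were in 66.7%, against 10.7% of all promoters. Matches were counted whether or not they overlapped with another match. Among the 13 tested genes with a promoter, 46.2% held the octamer, and among the 47 not tested 31.9%.

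The stretches before HIST1H1C and HIST1H2BH are shown because these were the genes that were called, in opposite directions. Capitals mark ATTTGCAT, CCAAT and TATAAA on either strand.

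HIST1H1C, chr6:26056471-26056720, minus strand: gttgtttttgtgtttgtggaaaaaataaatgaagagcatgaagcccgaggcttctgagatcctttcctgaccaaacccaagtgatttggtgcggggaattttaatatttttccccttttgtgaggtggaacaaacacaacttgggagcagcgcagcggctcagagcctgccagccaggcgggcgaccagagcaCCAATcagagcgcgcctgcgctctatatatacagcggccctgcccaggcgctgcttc
HIST1H2BH, chr6:26251364-26251613, plus strand: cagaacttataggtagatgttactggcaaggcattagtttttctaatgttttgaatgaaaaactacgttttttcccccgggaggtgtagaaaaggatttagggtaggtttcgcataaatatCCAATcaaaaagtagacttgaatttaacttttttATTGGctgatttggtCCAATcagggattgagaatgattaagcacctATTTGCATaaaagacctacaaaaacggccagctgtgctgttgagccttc

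HIST1H1C had a CCAAT box and neither of the other motifs. HIST1H2BH held the octamer and CCAAT boxes without TATAAA. HIST1H2BK, which was lower in D11 at less than 1.5-fold, held all 3 motifs, as did HIST1H2AC, HIST1H2AG, HIST1H2BJ and HIST2H2BE. Of these genes with the octamer, only HIST1H2BH was called, in D11. Whether the motifs had a part in the levels was not tested.

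The genes that make and cut histone mRNA, and other lists around them, were read beside the shares of all genes given above. Of 18 genes of histone transcription and 3′ end processing, 1 was called higher in D11 and none in WB1 or TD5 by limma, where 4, 1 and 0 had an adjusted p under 0.05 upwards and 3, 2 and 1 downwards, while 33.3%, 30.9% and 11.9% of all genes had one in either direction. At an unadjusted p under 0.05 it was 13, 7 and 3 genes. The called gene was CASP8AP2 (FLASH), which brings the U7 snRNP to histone pre-mRNA. CASP8AP2 had 411, 368 and 395 scaled reads in TPC1, 653, 717 and 631 (D11), 453, 559 and 470 (WB1) and 369, 395 and 471 (TD5). By limma it was 0.74 higher on the log2 scale in D11 (adjusted p = 7.4e-05) and 0.32 higher in WB1 (adjusted p = 0.0241), and TD5 had 0.06 (adjusted p = 0.739). SYMPK, the scaffold of the cleavage complex, was −0.24 in D11 (adjusted p = 0.00768) and −0.26 in WB1 (adjusted p = 0.00576), while TD5 had −0.09 (adjusted p = 0.41). SRRT, which links the cap-binding complex to 3′ end formation, had 2629 to 3453 scaled reads and was lower in D11 (−0.17) and WB1 (−0.19) at less than 1.5-fold. SLBP and NPAT are named after their values were seen, for their direct part in histone mRNA. SLBP had 1837, 1730 and 1527 scaled reads in TPC1, 2040, 1936 and 1878 (D11), 1570, 1598 and 1614 (WB1) and 2032, 1874 and 1873 (TD5), with a log2 fold change of 0.20 in D11 (adjusted p = 0.0327) and −0.09 in WB1 (adjusted p = 0.351), while TD5 had 0.18 (adjusted p = 0.0932). NPAT, the coactivator of histone genes that cyclin E and CDK2 phosphorylate, was 0.45 in D11 (adjusted p = 0.00356) and 0.08 and −0.01 in WB1 and TD5.

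Since the libraries were selected for polyadenylated RNA, the polyadenylation factors and the decay of histone mRNA were also read. Among 14 polyadenylation factors, none was called in any clone by limma. PAPOLA, the poly(A) polymerase, had 4961 to 5703 scaled reads in TPC1 and 5252 to 6578 in the clones, with a log2 fold change of 0.30 in D11 (adjusted p = 0.00652) and 0.21 in WB1 (adjusted p = 0.0387), while TD5 had 0.16 (adjusted p = 0.164). XRN2, which degrades RNA after the cleavage site, lay between −0.04 and 0.09. At an unadjusted p under 0.05, 4 genes of this list passed in each clone. In D11, WB1 and TD5, 3, 2 and 0 had an adjusted p under 0.05 upwards and 0, 1 and 0 downwards. Of 9 genes of histone mRNA decay, again none was called, and 6, 6 and 2 passed at an unadjusted p under 0.05 in D11, WB1 and TD5. The helicase UPF1 had 2858, 2716 and 2705 scaled reads in TPC1 and 2188 to 2752 in the clones, with −0.18 in D11 (adjusted p = 0.0658) and −0.27 in WB1 (adjusted p = 0.0122), while TD5 had −0.16 (adjusted p = 0.172). With an adjusted p under 0.05, 3 genes of this list were higher and 0 lower in D11, 3 higher and 1 lower in WB1 and 0 either way in TD5, and the median log2 fold changes were 0.18, 0.23 and 0.04. ERI1 and XRN1 are named after their values were seen. ERI1, the nuclease that trims the histone stem-loop, had 569, 524 and 520 scaled reads in TPC1 and 693, 711 and 900 in D11 (log2 fold change 0.49, adjusted p = 0.00902). XRN1, which degrades RNA from its 5′ end, had 0.47 in D11 (adjusted p = 0.00562) and 0.37 in WB1 (adjusted p = 0.0219). EXOSC10, a nuclease of the nuclear exosome, lay between −0.07 and 0.04.

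Histone genes outside this family were read as well, among them those of variants such as H3.3 and H2A.Z, which are made outside S phase too. The list is mixed: some of its genes have no intron, and the mRNA of H2AFX can end in the histone stem-loop. Its 12 genes had 22311 to 23606 scaled reads in TPC1, 25883 to 26565 in D11, 24741 to 26624 in WB1 and 24160 to 26499 in TD5, so that all clone libraries were above those of TPC1. None of the 11 tested was called by limma, with 5, 5 and 7 at an unadjusted p under 0.05 in D11, WB1 and TD5, and their median log2 fold change was 0.13 in D11, 0.05 in WB1 and 0.15 in TD5. H3F3B, which encodes the variant H3.3, had 5425, 5173 and 5757 scaled reads in TPC1, 6607, 6696 and 6610 (D11), 7525, 6652 and 6336 (WB1) and 5483, 5639 and 6284 (TD5). It was higher in D11 (0.28, adjusted p = 0.00528) and WB1 (0.32, adjusted p = 0.00236), at less than 1.5-fold, and was 0.09 in TD5 (adjusted p = 0.438). H2AFZ, which encodes H2A.Z, lay at 0.13, 0.06 and 0.07 with adjusted p-values of at least 0.0958. Of the 23 histone chaperones, which carry histones to DNA, none was called in any clone, with 7, 8 and 3 at an unadjusted p under 0.05. In the alternative fit by voom on the estimated reads, too, 0 genes of the polyadenylation, decay, variant and chaperone lists were called against TPC1. NAP1L1 had a log2 fold change of 0.18 in D11 (adjusted p = 0.0272), and SSRP1, a subunit of FACT, lay between −0.11 and 0.02.

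Among the S phase genes, those with an adjusted p under 0.05 were mostly higher in D11 and mostly lower in WB1. Their median log2 fold change over 25 genes was 0.16 in D11, −0.25 in WB1 and 0.00 in TD5, where HIST1H1C was −0.67, −0.83 and −0.77. The shares of all genes are those given above. In D11, 1 was called higher, and 9 had an adjusted p under 0.05 upwards and 1 downwards. In WB1, 2 were called lower, and 13 had an adjusted p under 0.05 downwards and 1 upwards. TD5 had no call by limma or voom, with 7 genes at an unadjusted p under 0.05 and 1 in each direction at an adjusted p under 0.05. Between WB1 and D11 themselves, 20 of the 25 were lower in WB1 at an adjusted p under 0.05 by limma and 0 higher, where 8.07% of all genes had one in either direction. CCNE2, a cyclin E, had 1073, 876 and 977 scaled reads in TPC1 and 1313, 1549 and 1600 in D11 (log2 fold change 0.60, adjusted p = 0.00129). CCNE1, the other cyclin E, had 308, 264 and 249 in TPC1 and 147, 145 and 146 in WB1 (−0.82, adjusted p = 2.1e-05). In D11 and TD5 CCNE1 was lower than in TPC1 as well, at less than 1.5-fold. It lay there near the lowest values of the list, −0.37 and −0.40. E2F1, a transcription factor of S phase entry, had 692, 572 and 647 in TPC1 and 409, 392 and 385 in WB1 (−0.66, adjusted p = 0.000109). MCM4, of the replicative helicase, was 0.25 in D11 (adjusted p = 0.0181) and −0.16 in WB1 (adjusted p = 0.102), and RRM2, of ribonucleotide reductase, lay between −0.15 and 0.17. Whether these differences had a part in the levels of the histone genes was not tested.

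**Figure D5:**
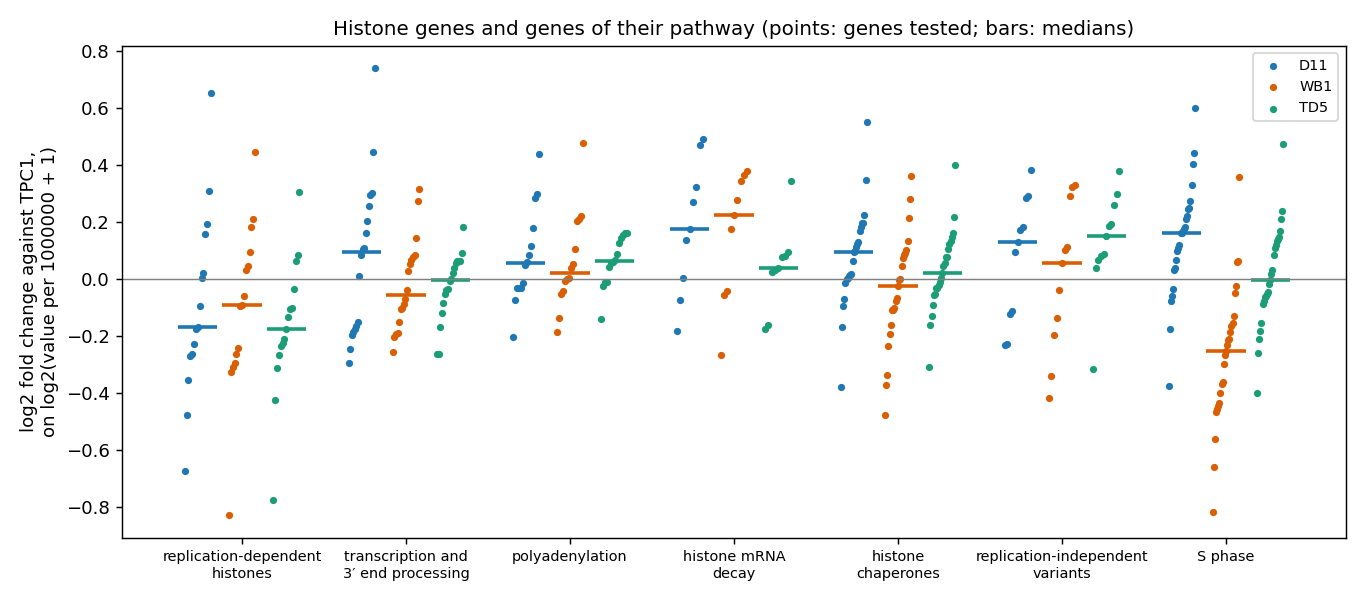
Log2 fold change against TPC1, on log2(value per 1000000 + 1), of the 15 tested replication-dependent histone genes and of the tested genes of 6 lists, in D11, WB1 and TD5. Each point is a gene and each bar the median, which for the histone genes lies at −0.17, −0.09 and −0.18 and for the S phase genes at 0.16, −0.25 and 0.00.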

How the data were processed

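RNA-seq libraries of TPC1 and of the Dicer1 (+/−) lines D11, WB1 and TD5 (3 each) were assigned to lines by their titles. Per the labels and the study's methods, the authors made libraries with a stranded mRNA kit, mapped paired-end reads with STAR 2.5.3a to GRCh38, counted them with HTSeq 0.9.1 on genes of Ensembl release 90 and scaled them to 20000000 reads. The deposited values are whole numbers of these scaled reads, and were handled as a score, since they are no read counts. Reads per library were estimated from the steps between values.

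The study names edgeR, which needs counts and was not used here. Libraries were set to a sum of 1000000. Genes reaching 1 on this scale in 3 or more libraries were kept (16027), 1 was added, and log2 values entered a limma fit (version 3.58.1, R 4.3.3) that used a mean-variance trend and had 1 mean per line. A call required at least a 1.5-fold change and an adjusted p (Benjamini-Hochberg, over all tested genes) below 0.05. Calling was tested on simulated data. Genes were placed with GENCODE release 44 on GRCh38, and promoters were taken from RefSeq. The stem-loop was searched in 120 bases after the stop codon and AATAAA in 3000. Python 3.11.15 and pysam 0.24.0 were used.

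The members, the 9 context lists and the tests were chosen with earlier results of these data known. Named by rule were DICER1, the 3 highest tested genes of each histone type, called members, the 3 highest genes under the filter and, of each list, the called genes and the 2 highest. Alternatives were other pseudocounts, filters and scalings, the replicate block, GC and length corrections, each library left out and, added after seeing the data, voom on the estimated reads and sums without each library.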

Additional observations from a re-analysis of the deposited data

Results flagged for a closer look

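Each of the following was tested as a difference between clones, by limma with Benjamini-Hochberg adjustment over all genes tested, and had an adjusted p under 0.05. Among the histone genes HIST1H2BK was higher in TD5 than in D11 by a log2 value of 0.35 (adjusted p = 0.0182). DICER1 was lower in TD5 than in D11 (−0.58, adjusted p = 0.000657) and than in WB1 (−0.34, adjusted p = 0.0307). The difference from WB1 ranged from −0.45 to −0.16 over the alternatives, with adjusted p-values up to 0.144 (length correction).

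Genes of the histone pathway and of S phase entry also differed. CASP8AP2 was lower than in D11 both in TD5 (−0.68, adjusted p = 0.000194) and in WB1 (−0.42, adjusted p = 0.0126). CCNE2 was lower than in D11 in TD5 (−0.69, adjusted p = 0.000547) and in WB1 (−0.81, adjusted p = 0.000155). E2F1 was lower in WB1 than in D11 (−0.77, adjusted p = 2.62e-05), higher in TD5 than in WB1 (0.50, adjusted p = 0.00228) and lower in TD5 than in D11 (−0.27, adjusted p = 0.047). CCNE1 was lower in WB1 than in D11 (−0.44, adjusted p = 0.00649) and higher in TD5 than in WB1 (0.42, adjusted p = 0.01). PDGFRB, from the markers of other cell types, was lower in WB1 than in D11 (−0.95, adjusted p = 0.00126) and higher in TD5 than in WB1 (1.35, adjusted p = 7.08e-05).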

How the results depend on the processing

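HIST1H1C was called lower in WB1 (−0.97 to −0.72) and in TD5 (−0.92 to −0.67) in each of the 22 alternatives. In D11 it ranged from −0.82 to −0.58, and the count of histone genes called lower fell from 1 to 0 with the GC correction and without TPC1 replicate 1 (0 to 1 over the libraries left out). The count called higher in D11 was 0 with a pseudocount of 4, with the filter of 5 per 1000000, which removed HIST1H2BH, and without D11 replicate 1 (0 to 1 over the libraries left out). In WB1 that count was 1 with a pseudocount of 0.1 (HIST1H2BH, 0.90) and with voom (1.02). Between clones, 1 gene was called for WB1 against D11 without WB1 replicate 1 (HIST1H2BD) and 1 for TD5 against WB1 without TD5 replicate 3 (HIST1H4H), so these counts were 0 to 1 over the libraries left out. The cause of these changes was not tested, apart from the filter.

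Between TD5 and D11 alone, each pair of same-numbered libraries correlated positively in its deviations from the line means, at 0.107, 0.172 and 0.348. Differently numbered libraries were not compared, so this does not show a pairing, and no label states one by replicate number. With the replicate block the counts called were 1 higher and 1 lower in D11, 0 and 1 in WB1, 0 and 1 in TD5 and 0 between clones, and no call changed.

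Without the highest gene of each type, the sums in D11, WB1 and TD5 as percent of TPC1 were 245, 155 and 155 for H1, at no more than 10 scaled reads. They were 106, 105 and 109 for H2A, 102, 100 and 83.4 for H2B, 79.4, 100 and 86.8 for H3, and 102, 115 and 83.0 for H4. For all genes without HIST1H1C they were 86.7, 92.8 and 90.2. With single libraries left out the total was 75.0 to 84.2% in D11, 77.3 to 86.7% in WB1 and 76.2 to 85.5% in TD5, the last being 85.5 without TPC1 replicate 1 and 76.2 without TPC1 replicate 2. Of 54 alternative values of the sums, 39 moved by less than 1 SD.

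Depth limits the genes under the filter and tested genes with few reads, such as HIST1H2BH. Another scaling moved the median of all genes by less than 0.1.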
